A study of Bos taurus with 111 samples.

Results

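Muscle of Holstein-Friesian (HF) steers was compared between the end of a phase on zero-grazed grass (ZG) and the end of the following finishing phase on a high-concentrate diet (H2). The comparison took every library labelled HF with diet ZG or H2 and at least 1000000 counts on genes, which left 35 of the 37 such libraries and of the 111 libraries of the whole series. The ZG group held 19 libraries, 10 from steers of high residual feed intake (H-RFI) and 9 from steers of low residual feed intake (L-RFI). The H2 group held 16 libraries, 8 of each class. The library just inside the limit had 3875025 counts on genes, and the 2 libraries outside it had 30681 (ZG) and 6062 (H2).

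Residual feed intake is the difference between what an animal eats and what its growth and body size predict, and the class was set again in each phase. Each library is 50-base single-end RNA sequencing of a biopsy of the longissimus muscle, from which 50 mg was extracted. All steers had received the concentrate diet in an earlier growing phase (H1), starting at a mean age of 306 days and a mean weight of 294 kg. The ZG phase used fresh grass with 196 g of dry matter per kg, and mean weight at its start was 441 kg. Each kg of the H2 concentrate held 860 g of rolled barley, 60 g each of soya and molasses, and 20 g of a mineral and vitamin supplement, a little silage was fed beside it, and mean weight at its start was 611 kg. Each phase was measured over 70 days. H2 steers were therefore older and heavier than ZG steers and were sampled at another time, so diet cannot be told apart from age, weight, season or the day of the biopsy.

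Skeletal muscle switches between fatty acids and glucose as fuel, and pyruvate dehydrogenase kinase 4 (PDK4) holds back glucose oxidation when fatty acids are used. Cattle deposit fat within muscle during finishing, in adipocytes lying between the fibres that make fatty acids and store them in lipid droplets. Immediate-early genes such as FOS, JUN and the NR4A nuclear receptors are transcription factors and regulators that respond within minutes to exercise, hormones, injury and handling.

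Counts on genes ran from 3875025 to 49093603 in ZG and from 10354026 to 38953671 in H2, and the medians of 15458011 and 17662285.5 did not differ beyond their spread (two-sided permutation test, p = 0.483). A count of 3 corresponded to 0.194 counts per 1000000 (CPM) at the ZG median depth and 0.170 CPM at the H2 median depth. The share of counts on MT-CO3 and MT-ND3, which the mitochondrial genome encodes, had a median of 2.77% in ZG and 5.05% in H2 (permutation p = 0.0270, and 0.183 after adjustment over 7 library measures). The share on the 10 most abundant genes had medians of 31.3% and 39.8% (p = 0.123), and no measure passed after adjustment. Library H2 of steer 5588 and library ZG of steer 5616 stood farthest out on the second axis of a multidimensional scaling plot, and without them 778 genes changed. No symbol of the muscle marker list was matched, but MYH6, a slow myosin heavy chain, lay between 63.4 and 844 CPM in every library. Transcripts of liver proteins were also present, and the sum of 10 of them ran from 24.9 to 10379 CPM in ZG and from 36.0 to 2081 CPM in H2, with 0 of the 10 past the thresholds in either direction.

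Of 10239 genes tested, 766 passed an adjusted p-value under 0.1 with a fold change above 1.5, in limma-voom with the RFI class as covariate and the steer as random block. Of these, 680 were lower in H2 (6.64% of genes tested) and 86 were higher (0.84%). The median log2 fold change of all genes, always given as H2 minus ZG, was -0.03. The count depends on the block. Only 2 steers, 1639 (H-RFI in both phases) and 5612 (L-RFI in both phases), gave a library in both diets, and they alone set the within-steer correlation of 0.797. Without the block 291 genes passed, 245 of them lower, and edgeR's quasi-likelihood test without the block gave 236, 192 of them lower. Across these 3 tests 175 genes passed in the same direction, 153 lower (1.49% of genes tested) and 22 higher (0.215%). Of the 124 genes with a matched symbol, 41 passed with the block, 31 lower and 10 higher, and 19 passed in all 3 tests, all 19 lower. Symbols were matched only for genes of the study's own lists, which it chose on these samples. Of the 124, 21 came from its selection for an interaction of diet and breed, so these counts and directions do not stand for all genes.

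**Figure D1:**
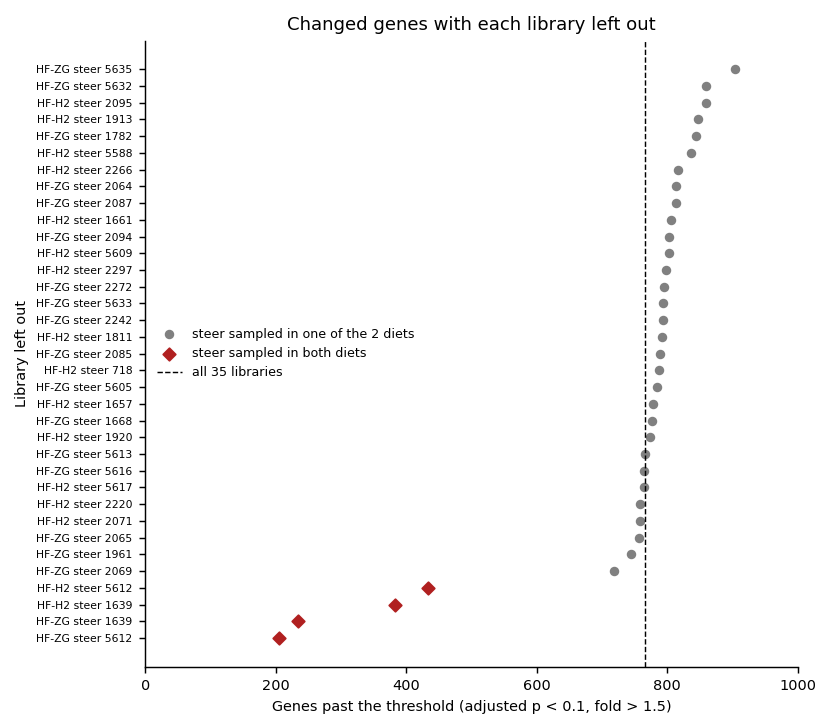
Number of genes past the thresholds (horizontal axis) when each of the 35 libraries was left out (vertical axis). The dashed line marks 766 genes with all libraries. Leaving out any of the 4 libraries of steers 1639 and 5612 (red diamonds) gave 205 to 433 genes, at a within-steer correlation of 0. Leaving out any other library gave 719 to 904.

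Immediate-early genes were the list with the most matched members, and most of those tested fell. Of 38 genes of this list 20 had a matched symbol, 19 were tested, and 13 were lower in H2, 0 higher and 6 did not pass. Over all genes tested, 6.64% were lower and 0.84% higher. In all 3 tests 12 of the 13 passed, with FOSB the exception. The median log2 fold change over the 19 was -1.30, against -0.03 over all genes. The list overlaps with genes that the study selected on these samples for an interaction of diet and breed, so their direction is not independent evidence: 14 of the 19 tested came from that selection, and 12 of those 14 were lower. Of the 5 tested outside the selection, CSRNP1 was the 1 that passed.

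NR4A2, an orphan nuclear receptor, had the largest fall among the named genes in the fit with the block. Its level was lowest at 0.675, median 18.9 and highest at 161 CPM in ZG, against 0, 0.563 and 23.8 CPM in H2. Of the 16 H2 libraries 15 lay below the ZG median and 8 below every ZG library. The log2 fold change was -4.41 (SE 0.64, adjusted p = 3.84e-05, and 0.00391 without the block), a fold of 21.2. NR4A1, a related receptor, ran from 37.1 through a median of 194 to 835 CPM in ZG and from 45.6 through 103 to 183 CPM in H2. All 16 H2 libraries were below the ZG median of NR4A1, and 10 ZG libraries were above every H2 library (log2 fold change -1.30, SE 0.25, adjusted p = 0.000796, and 0.0237 without the block). NR4A3 did not reach the filter on low counts, with medians of 2.74 CPM in ZG and 0.230 CPM in H2 and highest values of 33.5 and 0.934 CPM.

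Components of the AP-1 transcription factor fell together. FOS ran from 2.89 through a median of 132 to 1196 CPM in ZG and from 3.63 through 13.3 to 131 CPM in H2, and every H2 library was below the ZG median (log2 fold change -2.43, SE 0.53, adjusted p = 0.00246, and 0.0469 without the block). FOSB spanned 0.462 to 415 CPM in ZG with a median of 12.0, and 0.454 to 14.4 CPM in H2 with a median of 1.85. The fall of FOSB was 2.96 on the log2 scale (SE 0.73, adjusted p = 0.00704), and 8 of the 19 ZG libraries were above every H2 library, while the rest overlapped with H2, as the plot of immediate-early genes shows. The call of FOSB was lost without the block (adjusted p = 0.168) and kept in the quasi-likelihood test (0.00684).

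JUNB had medians of 15.9 CPM in ZG (range 3.47 to 79.5) and 7.11 CPM in H2 (range 1.70 to 22.5), with a log2 fold change of -1.96 (SE 0.36, adjusted p = 0.000562). JUN had medians of 109 CPM (range 56.1 to 606) and 50.2 CPM (range 26.1 to 112), and 10 of 16 H2 libraries were below every ZG library (log2 fold change -1.37, SE 0.20, adjusted p = 4.43e-05). FOSL2 had the most ZG libraries above every H2 library among these genes, 15 of 19, while 2 of its 16 H2 libraries were below every ZG library. Its medians were 5.06 and 2.10 CPM, and its log2 fold change was -1.28 (SE 0.22, adjusted p = 0.000233). The adjusted p-values of JUNB, JUN and FOSL2 were 0.0471, 0.00391 and 0.00415 without the block.

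**Figure D2:**
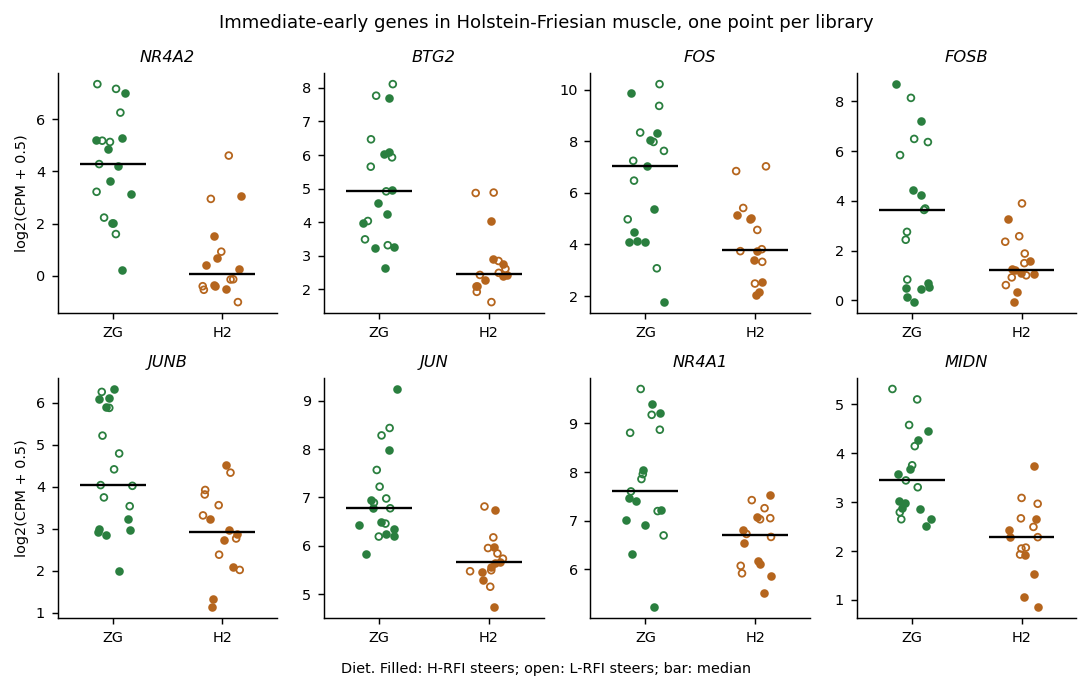
Levels of 8 immediate-early genes in each ZG (green, 19) and H2 (brown, 16) library, as log2 of CPM plus 0.5 on the vertical axis, with bars at the medians, filled points for H-RFI and open points for L-RFI steers. H2 medians lie below ZG medians in every panel, from 18.9 to 0.563 CPM in NR4A2 to 194 to 103 CPM in NR4A1. On the plotted scale ZG libraries span a wider range than H2 libraries in each panel except MIDN.

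BTG2, which restrains cell division, ran from 5.76 through 29.8 to 276 CPM in ZG and from 2.58 through 5.01 to 29.0 CPM in H2. All 16 H2 libraries were below the ZG median and 10 were below every ZG library (log2 fold change -2.81, SE 0.40, adjusted p = 3.84e-05). MIDN, which promotes the turnover of short-lived nuclear proteins, had medians of 10.4 and 4.37 CPM and a log2 fold change of -1.70 (SE 0.23, adjusted p = 3.22e-05). ZC3H12A, a ribonuclease that degrades inflammatory messengers, had medians of 4.51 and 1.92 CPM (log2 fold change -1.54, SE 0.23). CSRNP1, a nuclear protein first described as induced by AXIN1, had medians of 7.44 and 4.03 CPM (log2 fold change -1.65, SE 0.33, adjusted p = 0.00116). CCN1, a matrix-associated signalling protein, and PIM1, a kinase, fell by 0.80 and 0.96 on the log2 scale (adjusted p = 0.0144 and 0.0145). The adjusted p-values of BTG2, MIDN, ZC3H12A, CSRNP1 and PIM1 were 0.00605, 0.00416, 0.0105, 0.0257 and 0.0639 without the block.

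Not every early-response gene passed. EGR1 had medians of 11.2 CPM in ZG and 9.01 CPM in H2, with ranges of 1.98 to 298 and 1.15 to 97.6 CPM, and its log2 fold change of -0.38 (SE 0.41) had an adjusted p of 0.600. ZFP36, which destabilises messengers of immediate-early genes, had a log2 fold change of -0.56 (adjusted p = 0.0766), short of the fold limit of 0.58. NFKBIA, the inhibitor of NF-kappaB, was the exception in sign, at 0.58 (SE 0.17, adjusted p = 0.0193), just under the fold limit, and its adjusted p was 0.336 without the block. CCN2, APOLD1 and KLF11 had log2 fold changes of -0.29, -0.49 and -0.53 and did not pass.

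Genes of growth control and protein turnover were matched for 5 of 34 list members. DDIT4, which restrains the growth kinase mTORC1 under stress and glucocorticoids, and CEBPD, a transcription factor of the acute-phase response, were lower in H2 in all 3 tests, 0 were higher, and both belong to the interaction selection named above. Over all genes tested, 1.49% were lower in all 3 tests. DDIT4 ran from 59.2 through 158 to 479 CPM in ZG and from 14.1 through 49.7 to 216 CPM in H2, with 9 of 16 H2 libraries below every ZG library (log2 fold change -1.31, SE 0.30, adjusted p = 0.00339). CEBPD had medians of 5.48 and 2.81 CPM (log2 fold change -1.05, SE 0.21, adjusted p = 0.00127). FOXO1, a driver of muscle protein breakdown, had medians of 3.07 and 2.19 CPM, and its log2 fold change of -0.29 (SE 0.24, adjusted p = 0.494) did not pass. MSTN was not matched to a symbol and is not analysed here.

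Fuel-switch genes were led by PDK4, which had medians of 195 CPM in ZG (range 28.4 to 525) and 20.5 CPM in H2 (range 3.05 to 352). Of 16 H2 libraries 15 were below the ZG median and 9 below every ZG library. The log2 fold change was -1.95 with the block (SE 0.51, adjusted p = 0.0107) and -2.25 in the quasi-likelihood test (adjusted p = 0.0150). The highest H2 value of PDK4 belonged to steer 1639, in which PDK4 rose from 54.5 CPM on ZG to 352 CPM on H2, while it fell from 419 to 87.4 CPM in steer 5612. Leaving out the H2 library of steer 1639 gave a log2 fold change of -3.12, its ZG library -2.98 and the H2 library of steer 5612 -3.03. The within-steer correlation was 0 in each of these fits, so the block no longer acted in them. With all libraries and no block, PDK4 had a log2 fold change of -2.88 (adjusted p = 0.00153).

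Of the fatty acid oxidation list 4 of 33 members were matched. PDK4 and PLIN5 were lower, SLC27A6 was higher, and ACSM1 did not pass, where 6.64% of all genes were lower and 0.84% higher. PLIN5, which coats lipid droplets next to mitochondria, had medians of 16.4 CPM in ZG and 9.26 CPM in H2, with a log2 fold change of -0.85 (SE 0.19, adjusted p = 0.00358). Its call held without the block (adjusted p = 0.0627) and not in the quasi-likelihood test (0.115). PLIN5 also belongs to the interaction selection named above. SLC27A6, a fatty acid transport protein, had medians of 2.5 CPM (range 0.431 to 10.1) and 4.41 CPM (range 1.33 to 20.1) and the smallest p among the named genes that rose (log2 fold change 1.18, SE 0.29, adjusted p = 0.00585). Without the block its log2 fold change was 0.83 (adjusted p = 0.202). Leaving out the H2 library of steer 1639, the highest in SLC27A6, gave 0.69 (adjusted p = 0.25) at a within-steer correlation of 0. ACSM1, an acyl-CoA synthetase, had medians of 6.43 and 6.41 CPM.

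The matched adipocyte genes were higher in H2 than in ZG, though the calls of TRARG1, CIDEC and FABP4 were lost without the block. All 4 matched adipocyte genes of 22 in the list rose and 0 fell in the fit with the block, where 0.84% of all genes rose, and their median log2 fold change was 1.22. None of the 4 passed in all 3 tests. Their summed level ran from 3.45 through a median of 19.5 to 96.8 CPM in ZG and from 10.4 through 37.7 to 151 CPM in H2, so the groups overlapped. In bulk tissue, more fat cells and more RNA per fat cell cannot be told apart. Adiponectin and SCD are not analysed here, and LPL was not matched to a symbol.

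THRSP, which promotes the synthesis of fatty acids, ran from 0.542 through 3.19 to 55.7 CPM in ZG and from 5.03 through 13 to 100 CPM in H2. All 16 H2 libraries were above the ZG median of THRSP (log2 fold change 1.52, SE 0.47, adjusted p = 0.0316). Its adjusted p was 0.0707 without the block and 0.340 in the quasi-likelihood test. ANGPTL8, an insulin-responsive inhibitor of lipoprotein lipase, ran from 0.143 through 0.495 to 6.92 CPM in ZG and from 1.03 through 2.07 to 22.5 CPM in H2. Again all 16 H2 libraries were above the ZG median (log2 fold change 1.52, SE 0.39, adjusted p = 0.00944). The call of ANGPTL8 held without the block (0.0539) and not in the quasi-likelihood test (0.118).

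CIDEC, which enlarges lipid droplets, had medians of 4.83 CPM in ZG (range 0.797 to 42.4) and 11.8 CPM in H2 (range 2.89 to 53.5), with 12 of 16 H2 libraries above the ZG median. Its log2 fold change was 1.16 (SE 0.43, adjusted p = 0.0724), and its adjusted p was 0.175 without the block and 0.448 in the quasi-likelihood test. TRARG1, which regulates trafficking of the glucose transporter GLUT4, had medians of 4.29 and 10.0 CPM (log2 fold change 1.28, SE 0.39, adjusted p = 0.0300, and 0.130 without the block). FABP4, the fatty acid binding protein of adipocytes, had medians of 9.41 and 13.6 CPM (log2 fold change 1.00, SE 0.38, adjusted p = 0.0847, and 0.148 without the block). The call of FABP4 held in 20 of the 35 fits that left out a library.

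FASN, the fatty acid synthase, had medians of 50.1 CPM in ZG (range 18.7 to 258) and 84.2 CPM in H2 (range 32 to 382), and its log2 fold change of 0.31 (SE 0.34, adjusted p = 0.618) did not pass. ELOVL6, which elongates its product, had medians of 1.89 and 3.92 CPM and a log2 fold change of 0.79 (SE 0.44, adjusted p = 0.257). Of the lipogenesis list 3 of 20 members were matched, of which THRSP rose and 0 fell, where 0.84% of all genes rose.

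**Figure D3:**
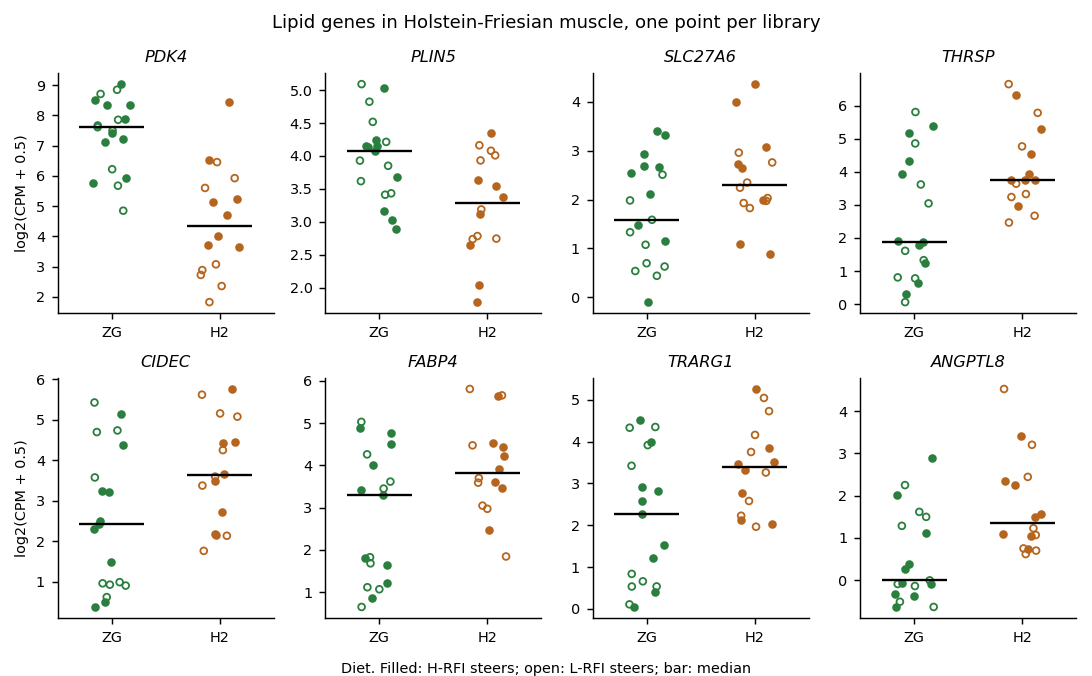
Levels of PDK4, PLIN5, SLC27A6 and 5 lipid genes in each ZG (green, 19) and H2 (brown, 16) library, as log2 of CPM plus 0.5 on the vertical axis, with bars at the medians, filled points for H-RFI and open points for L-RFI steers. PDK4 and PLIN5 medians are lower in H2 (20.5 and 9.26 CPM against 195 and 16.4 CPM) and the other 6 higher, and the libraries of the diets overlap in every panel.

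Few contractile and structural genes passed. MYH8, a perinatal myosin, had medians of 24.8 CPM in ZG and 23.5 CPM in H2, and MYH4, a fast myosin, had medians of 2.35 and 2.48 CPM. Neither they nor MYH6 passed, with log2 fold changes of -0.03, 0.48 and 0.07. MYL6B, an embryonic and slow light chain, had a log2 fold change of -0.96 (SE 0.39) with an adjusted p of 0.103. Of 4 matched genes of developmental isoforms, ACTC1, the cardiac and fetal actin, and CHRND, a subunit of the acetylcholine receptor, were lower and 0 were higher. Over all genes tested, 6.64% were lower. ACTC1 had medians of 17.9 CPM (range 3.68 to 310) and 9.90 CPM (range 1.64 to 119), with a log2 fold change of -1.19 (SE 0.46, adjusted p = 0.0885). CHRND had medians of 2.46 and 1.15 CPM (log2 fold change -1.02, SE 0.36, adjusted p = 0.0567). Without the block their adjusted p-values were 0.209 and 0.138. MYH1, MYH2 and MYH7 were not matched to symbols.

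MT-CO3, a subunit of cytochrome c oxidase, had medians of 18177 CPM in ZG (range 8008 to 162736) and 49819 CPM in H2 (range 11300 to 92653). Its log2 fold change was 0.78 (SE 0.30, adjusted p = 0.0910), and 13 of 16 H2 libraries were above the ZG median. MT-ND3, a subunit of complex I, had medians of 5841 and 13901 CPM (log2 fold change 0.88, SE 0.31, adjusted p = 0.0639). Both calls were lost without the block (adjusted p = 0.288 and 0.237). The share of counts on the 10 most abundant genes, given above, also had the higher median in H2, and its part in these values was not tested.

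Markers of other cell types gave few calls. The summed level of 6 lymphoid markers had medians of 7.41 CPM in ZG and 5.23 CPM in H2, and that of 8 myeloid markers 18.1 and 11.8 CPM. Of the 3 lymphoid and 7 myeloid markers tested, 0 passed. PTPRC, the pan-leukocyte antigen, had medians of 2.53 and 1.28 CPM and a log2 fold change of -0.997 (SE 0.50, adjusted p = 0.204). In the quasi-likelihood test the log2 fold change of PTPRC was 0.05 (adjusted p = 0.975). LYZ, lysozyme, had medians of 1.21 and 0.935 CPM. HBD, the only matched erythroid marker, was at 0 in every ZG library and at most 0.0584 CPM in H2. SOX18, an endothelial transcription factor, had close medians of 2.36 and 2.02 CPM, yet its log2 fold change was -1.71 (SE 0.48, adjusted p = 0.0187) with the block and -0.46 (adjusted p = 0.647) in the quasi-likelihood test. In both steers with paired libraries SOX18 fell, from 1.53 to 0.0431 CPM in steer 1639 and from 4.11 to 0.448 CPM in steer 5612. Leaving out any of their 4 libraries, where the within-steer correlation became 0, gave log2 fold changes of -0.69 to -0.89. The fit of all libraries without the block gave -0.90 (adjusted p = 0.380).

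Of 5 interferon-induced genes tested, MX1, an antiviral GTPase, was lower and 0 were higher, where 6.64% of all genes were lower. MX1 had medians of 4.18 CPM (range 1.32 to 46.1) and 2.53 CPM (range 1.21 to 5.39), with a log2 fold change of -0.75 (SE 0.24, adjusted p = 0.0414, and 0.142 without the block). IFIT3 had medians of 1.2 and 1.07 CPM and did not pass. ALB, albumin, had medians of 122 and 92.9 CPM with ranges of 13.2 to 5633 and 20.3 to 1437 CPM, and a log2 fold change of 0.09 (SE 0.52).

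Several other named genes passed. NAV2, a neuron navigator, had all 16 H2 libraries below the ZG median of 1.93 CPM and 14 of 19 ZG libraries above every H2 library (log2 fold change -1.40, SE 0.20, adjusted p = 3.84e-05). COQ10B, a coenzyme Q binding protein of mitochondria, had medians of 5.19 and 1.23 CPM (log2 fold change -1.92, SE 0.35, adjusted p = 0.000487). NAV2 and COQ10B both belong to the interaction selection named above, and their adjusted p-values were 0.000955 and 0.0205 without the block. NMRAL1, a redox sensor, had close medians of 10.0 and 10.4 CPM and a log2 fold change of 1.07 (SE 0.37, adjusted p = 0.0570, and 0.216 without the block). MICAL2, an actin-oxidising enzyme, was at the fold limit, with a log2 fold change of 0.59 (adjusted p = 0.0951). Of genes without a matched symbol, ENSBTAG00000047752 and ENSBTAG00000008545 had the smallest p among those that fell, with medians of 39.5 and 52.5 CPM in ZG and 3.98 and 7.29 CPM in H2 (log2 fold changes -3.68 and -3.27). ENSBTAG00000008172 and ENSBTAG00000021487 led those that rose, with medians of 81.5 and 5.32 CPM in ZG and 154 and 13.5 CPM in H2 (log2 fold changes 0.84 and 1.75), and all 4 passed in all 3 tests.

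The calls of SLC27A6, FOSB, SOX18, MX1, CHRND, NMRAL1 and MT-ND3 held in 31 of the 35 fits that left out a library, and were lost without any of the 4 libraries of steers 1639 and 5612. In those 4 fits the within-steer correlation was 0, so the block no longer acted. FOSB moved most among the immediate-early genes, to -1.92 without the ZG library of steer 5612. Leaving out that same library also ended the calls of PIM1 and THRSP, which held in the other 34 fits. The calls of TRARG1, CIDEC, ACTC1, MT-CO3 and MICAL2 held in 32, 30, 19, 16 and 15 of the 35 fits.

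Further lists held few matched members. Of 3 ribosomal protein genes, 1 nuclear gene of the respiratory chain, 1 antioxidant gene and 1 collagen and matrix gene tested, 0 passed. No symbol was matched in the lists of glycolysis, the circadian clock, heat shock, sterol synthesis, proliferation and fibroblast markers, so these are not analysed here.

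The steers with a library in both diets gave changes within an animal, which are values without a test. NR4A2 went from 36.5 to 2.41 CPM in steer 1639 and from 142 to 23.8 CPM in steer 5612. BTG2 went from 64.5 to 4.83 CPM and from 276 to 28.8 CPM, and FOS from 266 to 34.5 CPM and from 666 to 131 CPM. These 3 genes fell in both animals. DDIT4, like PDK4, rose in steer 1639 (137 to 216 CPM) and fell in steer 5612 (357 to 116 CPM). THRSP and FABP4 were nearly level in steer 1639 (14.8 to 12.9 CPM and 22.2 to 18 CPM) and rose in steer 5612 (2.01 to 9.56 CPM and 2.71 to 7.77 CPM).

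Whether the change from grass to concentrate differed between RFI classes was tested as a diet by RFI class term. With the block 4 of 10239 genes passed (0.0391%), of which PIM1 has a matched symbol. PIM1 had medians of 3.81 CPM in ZG and 3.25 CPM in H2 in H-RFI steers and 5.68 and 2.5 CPM in L-RFI steers, and its log2 fold change in L-RFI minus that in H-RFI steers was -2.04 (SE 0.42, adjusted p = 0.0922). Without the block 0 genes passed and PIM1's difference was -1.16 (SE 0.52, adjusted p = 0.986), with 100 genes at an unadjusted p under 0.05. The quasi-likelihood test also gave 0 genes, with 146 at an unadjusted p under 0.05. Each of the 2 paired steers stands for 1 RFI class here, and PIM1 went from 4.15 to 5.6 CPM in the H-RFI steer and from 17.1 to 3.06 CPM in the L-RFI steer. DDIT4 had medians of 134 and 68.5 CPM in H-RFI and 229 and 36.2 CPM in L-RFI steers, a difference of -1.79 (SE 0.50, adjusted p = 0.256). FOSL2 and NAV2 differed by -1.28 and -1.11, ASCC1, a transcription coactivator subunit, by -1.06 and SNX10, a sorting nexin, by 1.78, and none of these passed.

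The other breed, Charolais (CH), went through the same phases, with 18 ZG and 14 H2 libraries of at least 1000000 counts. In their own fit 25 of 9958 genes passed (0.251%), 23 of them lower in H2. The within-steer correlation of that fit was 0.248, against 0.797 in HF, so the 25 and the 766 genes come from unlike block settings. Of 20 immediate-early genes tested in CH 9 were lower, 0 were higher and 11 did not pass, where 0.231% of all genes were lower, and their median log2 fold change was -1.32 against 0.01 over all genes. Most of them belong to the selection of the study named above, which used the CH libraries too. Among those that passed, BTG2 fell by 2.80 on the log2 scale (SE 0.48, adjusted p = 0.00592), NR4A2 by 4.15 (SE 0.84, adjusted p = 0.0169), FOS by 3.81 (SE 0.71, adjusted p = 0.0138) and JUN by 1.59 (SE 0.32, adjusted p = 0.0169). MIDN, ZC3H12A, JUNB, NR4A1, FOSB and EGR1 did not pass, with log2 fold changes of -1.19, -1.04, -1.42, -1.27, -4.14 and -1.61. PDK4 fell by 2.65 (SE 0.60, adjusted p = 0.0496) and DDIT4 by 1.68 (SE 0.33, adjusted p = 0.0168). THRSP, CIDEC and FABP4 had log2 fold changes of 1.23, 1.00 and 1.43 in CH that did not pass, and MT-CO3 had 0.10.

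The difference between breeds was itself tested, and in limma-voom with the block 0 of 10063 genes passed (0%), with 384 at an unadjusted p under 0.05. The same test gave 0 genes without the block (320 at an unadjusted p under 0.05) and 0 by quasi-likelihood (557). BDH1, an enzyme of ketone body use, had the smallest p among named genes, at a difference of -1.72 (SE 0.55, unadjusted p = 0.00241, adjusted p = 0.998). NMRAL1, MAP3K14, EGR1 and MYL6B followed, with differences of 1.39, -0.73, 1.34 and -1.44. For NR4A2 the difference was -0.04 with an SE of 1.10, and for PDK4 0.12 with an SE of 0.77, so differences of several fold between breeds were not detectable for these genes.

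**Figure D4:**
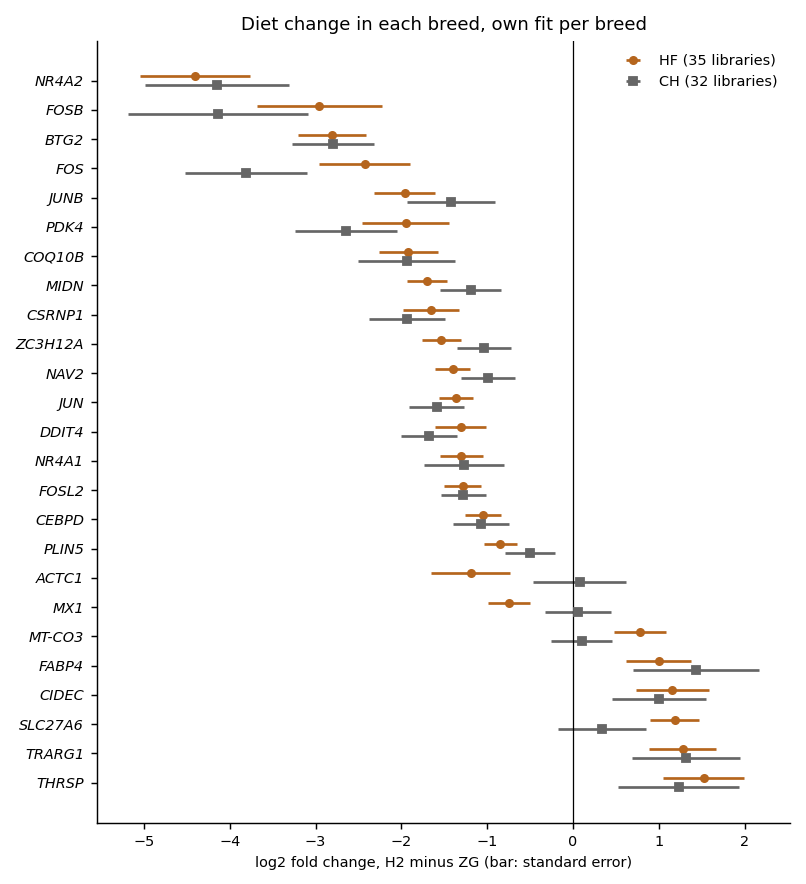
Log2 fold change of 25 genes, H2 minus ZG, in HF (brown circles, 35 libraries) and CH (grey squares, 32 libraries), with bars of 1 standard error. NR4A2 lies at -4.41 and -4.15, PDK4 at -1.95 and -2.65 and THRSP at 1.52 and 1.23, while SLC27A6 lies at 1.18 in HF and 0.34 in CH.

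The earlier concentrate phase, H1, gave a further set of 20 HF libraries, normalised here together with ZG and H2. H1 minus ZG and H2 minus ZG share the ZG libraries, so their values are placed side by side and the order of the phases was not tested. NR4A2 had medians of 4.47 CPM in H1, 20.2 CPM in ZG and 0.604 CPM in H2. FOS had medians of 18, 143 and 14.5 CPM, and BTG2 had 13.8, 31.8 and 5.36 CPM. PDK4 had medians of 59.6, 202 and 21.6 CPM, so ZG had the highest median of the phases in all 4 genes. Of these, FOS, BTG2 and PDK4 did not pass between H1 and ZG, with log2 fold changes of -1.56 (adjusted p = 0.176), -0.71 (0.513) and -1.13 (0.315). Of 20 immediate-early genes tested, 5 were lower in H1 than in ZG and 0 were higher. Over all 10478 genes tested for H1 minus ZG, 52 were lower in H1 and 30 were higher. The H1 minus ZG log2 fold change was -1.87 for NR4A2 (SE 0.55, adjusted p = 0.0867), -1.51 for JUNB (SE 0.32, adjusted p = 0.0111), -1.12 for DDIT4 (SE 0.28, adjusted p = 0.0289) and -0.95 for PLIN5 (SE 0.19, adjusted p = 0.00788).

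PLIN5 also had its highest median in ZG, with 9.82 CPM in H1, 17.5 CPM in ZG and 9.71 CPM in H2. THRSP, CIDEC, TRARG1 and ANGPTL8 had theirs in H2. THRSP had medians of 3.91 CPM in H1, 3.39 CPM in ZG and 13.9 CPM in H2, and CIDEC had 2.60, 5.13 and 12.9 CPM. TRARG1 had 1.93, 4.56 and 10.9 CPM, and ANGPTL8 had 1.35, 0.528 and 2.22 CPM. FABP4 had 4.06, 10.0 and 14.7 CPM, and its H1 minus ZG log2 fold change of -0.89 did not pass. The H1 minus ZG log2 fold changes of THRSP, CIDEC and TRARG1 were -0.25, -1.14 and -0.96, and none passed, against 1.94, 1.47 and 1.47 for H2 minus ZG in the same fit. MICAL2 had medians of 39.6, 26.1 and 34.4 CPM, and was higher in H1 than in ZG (log2 fold change 0.78, SE 0.22, adjusted p = 0.0667).

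**Figure D5:**
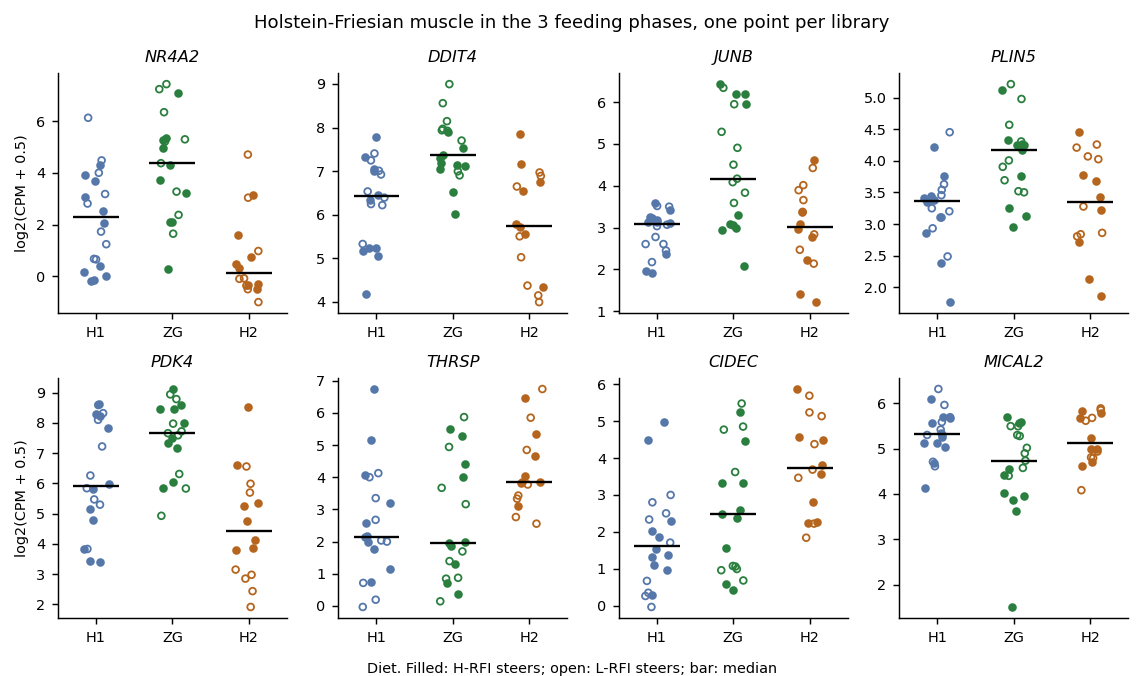
Levels of 8 genes in each HF library of the phases H1 (blue, 20), ZG (green, 19) and H2 (brown, 16), as log2 of CPM plus 0.5 on the vertical axis, with bars at the medians, filled points for H-RFI and open points for L-RFI steers. NR4A2, DDIT4, JUNB, PLIN5 and PDK4 have their highest median in ZG, and THRSP and CIDEC theirs in H2 (13.9 and 12.9 CPM).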

How the data were processed

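Biopsies were sequenced as stranded, polyA-selected libraries. The submitters' processing notes name FastQC 0.11.5, STAR 2.5.1, HTSeq and DESeq2 and the build UMD3.1, the study's methods name ARS-UCD1.2, and no coordinate is given here. The deposited files hold unnormalised, unfiltered read counts for 24616 Ensembl genes. The reverse-strand counts were used. Symbols came from the study's supplementary gene lists (151 identifiers matched, 124 tested), which the study chose for RFI or interaction effects, so most list members are unmatched.

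HF libraries of ZG and H2 with at least 1000000 counts were compared with voomLmFit of edgeR 4.0.16 and limma 3.58.1 in R 4.3.3. The filter kept a gene where 50% or more of the libraries reached 1 CPM, TMM factors were applied, and levels are TMM-normalised CPM. Thresholds were a Benjamini-Hochberg adjusted p-value of 0.1 and a fold change of 1.5. The steer numbers in the labels give the pairing. Log2 deviations from the diet means correlated at 0.827 between the libraries of steer 1639 and at 0.362 between those of steer 5612. The median for different steers was -0.02. Of the pairs of different steers, 0.331% correlated more highly than the libraries of steer 1639 and 27.2% more highly than those of steer 5612. The value of steer 5612 thus lay within the spread of unrelated pairs. Library measures were compared by the difference of medians with 100000 permutations. Alternatives were edgeR's quasi-likelihood test, DESeq2 1.42.0, other weights, scaling, filters, strands and sets of libraries, and 2 were chosen after seeing the data: the block at the correlation of the 3 HF diets, and the fit without the 2 libraries farthest out. Only the main fit was run on simulated data, which held no steer effect, so that run could not test the steer block.

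Named genes were the 12 matched genes of smallest adjusted p in each direction (10 rose), up to 4 changed members of each list, a set named whatever its result, and up to 6 genes per interaction. A gene under this rule is not reported here. The members and lists were chosen with earlier results of these data known. The 3-count limit covers counting error only. Within a diet each library came from a different steer, so standard errors include the spread between animals.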

Additional observations from a re-analysis of the deposited data

Results flagged for a closer look

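The following 4 results stood out because the change from grass to concentrate differed between RFI classes by a test of the difference itself, in the fit with the steer block. PIM1 differed by -2.04 on the log2 scale (L-RFI minus H-RFI), and 3 genes without a matched symbol differed by 1.02, -1.68 and 6.23. None passed without the block or in the quasi-likelihood test, and the within-steer correlation of 0.854 in that fit rests on 1 paired steer in each class.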

How the results depend on the processing

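Against 766 changed genes in HF, the count was 291 with no replicate block, 236 in edgeR's quasi-likelihood test and 330 in DESeq2 (both without the block), 367 with the block at the correlation of 0.354 estimated over the 3 HF diets, 217 without steers 1639 and 5612, 163 with the libraries under 1000000 counts kept, 21 in L-RFI steers alone, 0 in H-RFI steers alone by limma-voom (850 at an unadjusted p under 0.05), 1178 with sample quality weights and 1756 with no fold limit. The pairing of the 2 steers thus moved the count by more than 1.5 times. Leaving out each library gave 205 to 904 genes. Without the ZG or H2 library of steer 1639 the count was 234 and 383, and without those of steer 5612 it was 205 and 433. The within-steer correlation was 0 in the fits without a library of these steers. The share of lower calls was 88.8%, 73.7% without both steers, 77.3% in DESeq2 and 78.5% with the small libraries kept. The count stayed within 1.5 times under the other alternatives. These were RLE, filterByExpr, no filter, unstranded counts, RFI left out, 3 diets together, adjusted p under 0.05, and without the 2 libraries farthest out. The genes themselves moved more, as 458 of the 766 passed with no filter and 536 with the 3 diets together. The 13 lower immediate-early genes were 12 to 15 under the other tests, scalings, filters and sets of libraries that kept both RFI classes, 2 in L-RFI and 0 in H-RFI steers alone, and the 4 higher adipocyte genes were 0 to 4. The 4 genes of the RFI class difference became 0 with no replicate block, by quasi-likelihood and with small libraries kept. Signs turned only in named genes that had not passed. ALB had -0.19 with no replicate block, -0.20 with small libraries, -0.10 over 3 diets, -0.24 without both steers, -0.0929 in L-RFI, -0.26 in H-RFI, -0.81 by quasi-likelihood, -0.13 with the added block and -0.33 to 0.31 leaving out libraries. PTPRC had 0.0781 in L-RFI, 0.0503 by quasi-likelihood and 0.0507 by DESeq2. LYZ had 0.55, 0.26 and 0.24 in the same 3 and -0.82 to 0.14 leaving out libraries. ACSM1 had -0.0225 without both steers, -0.37 in H-RFI, -0.46 by quasi-likelihood, -0.46 by DESeq2 and -0.0556 to 0.70 leaving out libraries. EGR1 had 0.19 in L-RFI and -0.55 to 0.0233 leaving out libraries. MYH6 had -0.00738 over 3 diets, -0.0692 in L-RFI and -0.00533 to 0.18 leaving out libraries, and MYH8 -0.31 to 0.0725 leaving out libraries. The cause of these shifts was not tested. Depth limits the low genes: at the median depth 3 counts are 0.170 to 0.194 CPM.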
